A study of Mus musculus with 6 samples.

Results

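The genes described here encode the proteins of the cytosolic ribosome in mouse. They were chosen by name, as array features listed for exactly 1 gene whose symbol has the form Rpl or Rps with a number, or is Rplp0, Rplp1, Rplp2 or Rpsa, without kinases and without pseudogenes whose symbol ends in -ps. Where a gene had several such features, the brightest by its mean over the 6 arrays was used. The rule found 38 genes among the 30702 genes of the table, 23 of the large subunit and 15 of the small subunit. Rplp1 and Rplp2 have no feature of their own and so are not among the 38.

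All RNA came from mouse cells of the genotype labelled iRunx, differentiated from embryonic stem cells as embryoid bodies (floating clusters that mimic early development) and sorted at day 4 as Flk1+PDGFRα- cells, the surface type of precursors of blood and vessels. The 3 control samples lacked, and the 3 HOXB4 samples had, expression of tdTomato (a red fluorescent marker) and HOXB4 (a homeobox transcription factor studied for blood stem cell growth) from a retrovirus. The sources used here do not give the clone number of the line, any induction of a Runx transgene, or what vector the controls received. The series text describes 3 independent experiments, and the comparison addresses the effect of HOXB4 on gene expression.

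The cytosolic ribosome is made of a small subunit, which decodes the mRNA, and a large subunit, which joins amino acids. Each subunit is built on ribosomal RNA with many proteins that are needed in equal amounts, and cells tune their mRNAs together with growth. Many of these mRNAs begin with a tract of pyrimidines, the 5′ terminal oligopyrimidine (TOP) element, through which the TOR pathway controls their translation. Mouse genomes hold many processed pseudogenes of these genes, so an array probe can read more than 1 locus.

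Values are log2 RMA summaries per feature, made by the authors. A value can be set against the same feature in another array, but not against another feature, because probes differ in brightness. The 23 background features had medians of 3.06 to 3.15 in the 6 arrays, and the median gene lay between 5.10 and 5.22. Of the sorting markers, Kdr, which encodes Flk1, ranged from 13.68 to 14.33 over the 6 arrays and so was present throughout. The feature of Pdgfra and that of Hoxb4 each also name a microRNA gene, so neither was used to check the sort or the transgene. Control 2, HOXB4 1 and HOXB4 3 were alike in endothelial markers and apart from the other arrays: Pecam1, an endothelial adhesion molecule, had control values of 8.10, 10.63 and 7.96 and HOXB4 values of 11.75, 7.75 and 10.71. HOXB4 2 and control 2 thus each differ from the rest of their group. Results are given without HOXB4 2 where they change, and some also without control 2.

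Promoters of these genes were looked at because most members differed in the same direction. The RefSeq table (GRCm38.p6) held 250 bases before to 50 bases after an annotated gene start for 32 of the 38 genes. A run of at least 8 C and T bases on the gene's strand, within 50 bases of the start on either side, was present for 27 of the 32 genes (84.4%), against 39.3% of the 27025 genes in the promoter table. The runs of the 4 members that have a promoter in the table and an unadjusted p below 0.05 with a lower value in HOXB4 cells follow as windows of 30 bases, 5′ to 3′, with the longest run in capitals. Rpl10l, which lacks such a run, is added for contrast, and Rpl11, which has one, is added as well. The windows of Rpl11 and Rpl39 also hold the motif ccggaag, in Rpl39 on the other strand.
Rps15, chr10:80292446-80292475, plus strand: gcagcccgtaCTTCCTTTTCCgagtaaccg
Rpl39, chrX:37085173-37085202, minus strand: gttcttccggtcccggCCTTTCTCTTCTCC
Rps7, chr12:28635911-28635940, minus strand: ctgtccccaCCTCTTTTCTTCCgccacccg
Rps10, chr17:27635227-27635256, minus strand: ccgcgcacgCCCCTTCCTTTCCagcctccg
Rpl11, chr4:136053358-136053387, minus strand: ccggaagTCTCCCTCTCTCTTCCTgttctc
Rpl10l, chr12:66284429-66284458, minus strand: tcagtctctatgaTTCCCgcaaggcttgat

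The runs in the first 4 windows are 11, 14, 13 and 13 bases long and begin 26, 37 and 23 bases after the start for Rps15, Rpl39 and Rps7 and 3 bases before it for Rps10. That of Rpl39 reaches the last base searched, so its 14 bases are a minimum. Rpl11 has a run of 17 bases, and the longest run of Rpl10l has 5. The other members without a run of 8 were Rplp0 and Rps4x with 7, Rpsa with 7 and Rps28 with 5. By subunit, the run was found for 18 of 20 large and 9 of 12 small subunit genes. Among the paralogs, Rpl3l, Rpl39l and Rps27l each held a run of 9 bases, unlike Rpl10l. The motif CCGGAAG, the core bound by ETS family factors, was searched on both strands of the whole promoter window and was present for 15 of the 32 genes (46.9%), against 9.93% of all genes. ATGGCGG, the core bound by YY1, was present for 3 genes (9.38%, against 4.69%), CACGTG, the E-box bound by MYC and MAX, for 2 (6.25%, against 8.09%) and TATAAA, the TATA box, for 5 (15.6%, against 15.7%). These are matches of letters, not tested binding sites, and gene starts of the annotation need not be those used in these cells.

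In HOXB4 cells the ribosomal protein genes lay slightly lower than in controls. Of the 38 genes, 35 had a difference below 0, where 60.0% of all genes did. The median difference was -0.13 on the log2 scale, which is 91.1% of the control level, against -0.039 or 97.3% over all genes. With limma and Benjamini-Hochberg adjustment no member was called at 0.05, nor was any of the 30702 genes (0.0% called); the adjusted p of the members ran from 0.605 to 0.962. At an unadjusted p below 0.05, 5 members lay lower, where 5.95% of all genes did, and 1 lay higher, where 2.23% did. Without HOXB4 2, limma called 46 of all genes, none of them a member. All 3 HOXB4 values lay below all 3 control values for 16 members (42.1%), where 10.2% of all genes did so, and above them for 1 member (2.63%), where 3.24% of all genes did so.

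These counts depend on the scaling between arrays. With cyclic loess, the median difference was -0.043 and 30 of 38 members lay below 0, beside a median of 0.0063 and 48.3% below 0 over all genes. Against the values as deposited, 28 members then lay nearer to 0 by over 1.5 times and 5 turned to above 0 (Rpl4, Rpl10a, Rpl32l, Rps18 and Rps29). Wholly below the controls were then 3 members, all of the small subunit (Rps10, Rps20 and Rps9), where 6.22% of all genes did so. With arrays centred on the median gene the count was 12, where 9.6% of all genes did so. The count of 16 was 27 without HOXB4 2, where 21.4% of all genes did so, and 19 without control 2, where 17.0% did so. The lean to lower values was also more common among bright features: among the 4443 genes with a mean level of at least 10, 64.2% lay below 0, 19.0% lay wholly below the controls and the median difference was -0.079.

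**Figure D1:**
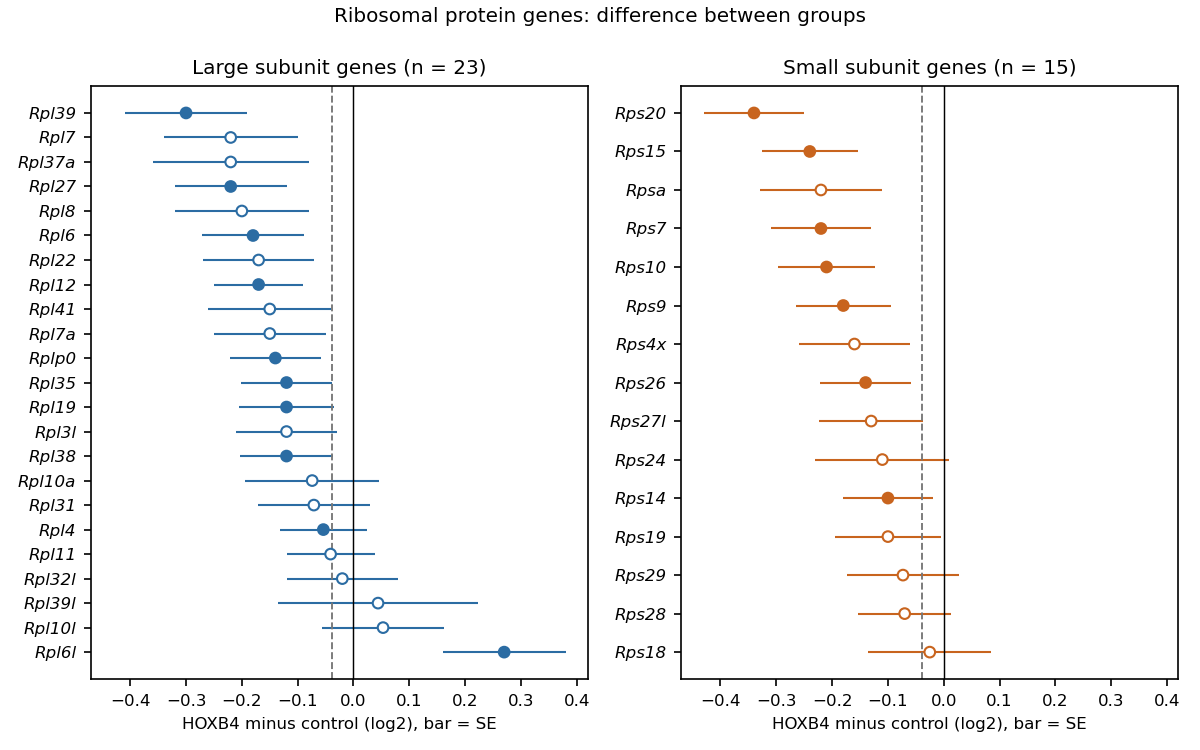
Difference between HOXB4 and control (log2, mean of 3 arrays minus mean of 3 arrays) for each ribosomal protein gene, large subunit on the left and small subunit on the right, with bars of 1 moderated SE. Filled points are the 17 genes whose groups do not overlap; the dashed line is the median of all genes at -0.039. All 15 small and 20 of 23 large subunit genes lie left of 0, from -0.34 for Rps20 to 0.27 for Rpl6l.

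The large and small subunits were compared next. The median difference was -0.12 for the 23 large subunit genes and -0.14 for the 15 small subunit genes, so the large subunit's median was higher by 0.013. That gap ran from -0.0085 to 0.052 over the alternatives and so had no settled sign. Wholly below the controls were 9 of 23 large subunit genes (39.1%) and 7 of 15 small subunit genes (46.7%). All 15 small subunit genes and 20 of 23 large subunit genes lay below 0, and the 3 above 0 were Rpl6l, Rpl10l and Rpl39l. A set without paralogs, Rpl6l and Rpl32l was chosen after seeing the data and leaves out these 3 genes. That its 18 large and 14 small subunit genes all lay below 0 follows from that choice. Their medians were -0.15 each, and 9 and 7 lay wholly below the controls, where 10.2% of all genes did so.

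Averaged over large subunit genes, controls 1 to 3 gave 12.48, 12.43 and 12.41 and the HOXB4 arrays, in the same order, 12.29, 12.38 and 12.32. That over small subunit genes was 12.16, 12.14 and 12.11 in controls and 11.98, 12.04 and 11.92 in HOXB4 cells. In both subunits every HOXB4 array lay below every control, and HOXB4 2 lay closest to the controls. The large minus the small subunit mean was 0.32, 0.29 and 0.30 in controls and 0.31, 0.34 and 0.40 in HOXB4 cells. Its size reflects the probes, and only its change between arrays can be read: the groups overlapped, and HOXB4 3 was highest.

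**Figure D2:**
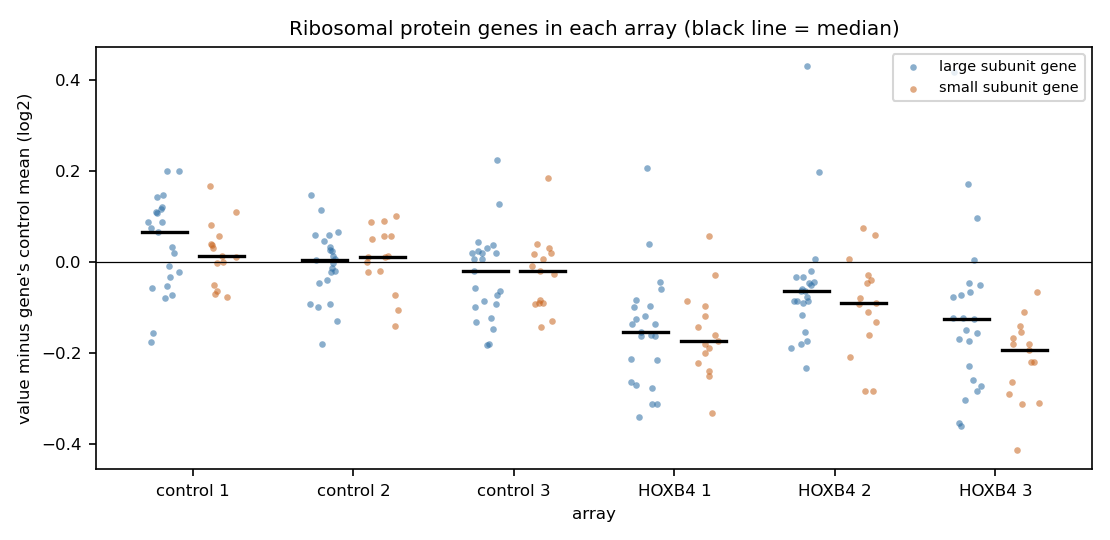
Each point is a ribosomal protein gene in 1 array, as its value minus that gene's mean over the 3 controls (log2), with the median as a black line, for 23 large (blue) and 15 small (orange) subunit genes. The medians of the HOXB4 arrays are -0.15, -0.066 and -0.13 for large and -0.17, -0.089 and -0.19 for small subunit genes, with HOXB4 2 nearest to 0.

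Among the 6 arrays, HOXB4 3 gave the lowest value for 19 members and HOXB4 1 for 11, while control 2 and HOXB4 2 gave it for 3 each and control 1 for 2. Control 1 gave the highest value for 19 members, control 2 for 10 and control 3 for 5. In bulk samples such as these, fewer cells of a type and less RNA per cell cannot be told apart.

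Among small subunit genes, Rps20, which encodes a protein of the head of the subunit, had the smallest unadjusted p. It stood at 10.94, 10.96 and 10.81 in controls and at 10.57, 10.62 and 10.49 in HOXB4 cells. The groups did not overlap, and the difference was -0.34 (SE 0.09; 95% interval -0.56 to -0.13), or 78.9% of the control level. Its adjusted p was 0.605 with limma (unadjusted p = 0.0072). With cyclic loess the difference was -0.25, and it ran from -0.39 to -0.31 when 1 array was left out.

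Rps15, another protein of the head, stood at 13.42, 13.29 and 13.38 in controls and at 13.19, 13.08 and 13.10 in HOXB4 cells, again without overlap. Its difference was -0.24 (SE 0.086), and -0.13 with cyclic loess. Rps7, which like several ribosomal proteins can bind MDM2, stood at 17.04, 17.13 and 16.95 in controls and at 16.86, 16.83 and 16.75 in HOXB4 cells. Its groups did not overlap, and the difference was -0.22 (SE 0.09), or -0.11 with cyclic loess. Rps10 stood at 10.67, 10.61 and 10.61 in controls and at 10.47, 10.47 and 10.32 in HOXB4 cells. The HOXB4 values were the 3 lowest, with a difference of -0.21 (SE 0.087) that was -0.12 with cyclic loess.

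Rps9, a protein that binds the small subunit's RNA early in assembly, was at 8.99, 8.98 and 8.97 in controls and at 8.74, 8.89 and 8.76 in HOXB4 cells. The groups did not overlap, the controls had an SD of 0.011 (n = 3), and the difference was -0.18 (SE 0.085). Rps26 was at 17.68, 17.74 and 17.77 in controls and at 17.61, 17.62 and 17.55 in HOXB4 cells, a difference of -0.14 (SE 0.081) without overlap that was -0.027 with cyclic loess. Rpsa, which encodes the laminin receptor protein of the small subunit, was at 15.93, 15.74 and 15.62 in controls and at 15.54, 15.63 and 15.45 in HOXB4 cells. HOXB4 2 reached control 3, so the groups met, and the difference was -0.22 (SE 0.11); it was -0.14 without control 1 and -0.12 with cyclic loess. Rps4x, an X-linked gene, was at 13.47, 13.54 and 13.31 in controls and at 13.24, 13.40 and 13.22 in HOXB4 cells, with overlap through HOXB4 2.

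The remaining small subunit genes lay between -0.13 and -0.025. Rps14 was the seventh without overlap, at 8.20 to 8.24 in controls and 8.06 to 8.18 in HOXB4 cells (-0.10, SE 0.081). Rps18, Rps28, Rps29, Rps19 and Rps24 overlapped between groups, with differences of -0.025, -0.07, -0.073, -0.10 and -0.11. Rps18 turned to 0.064 without control 3 and 0.0041 without HOXB4 1, and Rps24 stood at -0.0027 with cyclic loess. The 95% intervals of these 5 genes all held 0. Their lower ends ran from -0.39 (Rps24) to -0.27 (Rps28) and their upper ends from 0.13 (Rps28 and Rps19) to 0.24 (Rps18). Changes within a gene's own interval are not excluded by these arrays. Rps19, the gene most often mutated in Diamond-Blackfan anaemia, stood at 7.82, 7.91 and 7.74 in controls and at 7.68, 7.83 and 7.67 in HOXB4 cells.

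Among large subunit genes, Rpl39, which encodes a small protein lining the exit tunnel, had the smallest unadjusted p. It stood at 11.42, 11.36 and 11.12 in controls and at 10.96, 11.11 and 10.94 in HOXB4 cells. HOXB4 2 lay just below control 3, so the groups did not overlap, and the difference was -0.30 (SE 0.11), or 81.3% of the control level. Its adjusted p was 0.605 with limma (unadjusted p = 0.033), and the difference was -0.20 with cyclic loess.

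Rpl27 was at 15.81, 15.64 and 15.54 in controls and at 15.50, 15.43 and 15.38 in HOXB4 cells, a difference of -0.22 (SE 0.10). Rpl12, a protein at the base of the stalk, was at 18.05, 18.15 and 18.11 in controls and at 17.94, 17.93 and 17.93 in HOXB4 cells, a difference of -0.17 (SE 0.08). Neither gene's groups overlapped, and the differences were -0.12 and -0.063 with cyclic loess. Rplp0, the protein that anchors the stalk where elongation factors dock, was at 14.11, 14.04 and 13.98 in controls and at 13.89, 13.89 and 13.92 in HOXB4 cells. All HOXB4 values lay below the controls, and the difference was -0.14 (SE 0.082), or 90.5% of the control level, and -0.038 with cyclic loess.

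Rpl6 was at 9.48, 9.47 and 9.52 in controls and at 9.22, 9.43 and 9.26 in HOXB4 cells, a difference of -0.18 (SE 0.091) without overlap. Rpl7 was at 10.17, 10.09 and 9.93 in controls and at 9.75, 10.03 and 9.76 in HOXB4 cells, where HOXB4 2 lay above control 3 (-0.22, SE 0.12). Without overlap but with smaller differences were Rpl19 (-0.12), Rpl35 (-0.12), Rpl38 (-0.12) and Rpl4 (-0.054). With cyclic loess Rpl19, Rpl35 and Rpl38 stood at -0.014, -0.012 and -0.009, and no large subunit gene lay wholly below the controls. Rpl4, a protein with a long extension into the exit tunnel, was at 18.43, 18.44 and 18.49 in controls and at 18.41, 18.41 and 18.38 in HOXB4 cells, and its difference turned to 0.055 with cyclic loess. Rpl41, the shortest ribosomal protein, was at 18.37, 18.23 and 18.08 in controls and at 17.95, 18.11 and 18.16 in HOXB4 cells. Those groups overlapped, and its difference of -0.15 (SE 0.11) was -0.08 when control 1 and -0.09 when HOXB4 1 was left out.

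The other large subunit genes overlapped between groups. Rpl37a, Rpl8, Rpl22 and Rpl7a differed by -0.22, -0.20, -0.17 and -0.15 (SE 0.14, 0.12, 0.10 and 0.10), and Rpl10a, Rpl31 and Rpl11 by -0.074, -0.071 and -0.041 (SE 0.12, 0.10 and 0.079). Rpl8 stood at -0.10 without control 1, Rpl37a at -0.33 without HOXB4 2 and Rpl7a at -0.094 without HOXB4 1, and Rpl10a turned to 0.036 without control 3. With cyclic loess the first 4 stood at -0.11, -0.091, -0.11 and -0.044. Rpl11, a protein that with 5S RNA can bind MDM2, stood at 7.18, 7.12 and 7.18 in controls and at 7.10, 7.14 and 7.11 in HOXB4 cells. Its 95% interval ran from -0.23 to 0.15.

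The member that went the other way was Rpl6l, which the RefSeq table lists as a pseudogene on chromosome 10 although its symbol does not end in -ps. It stood at 12.15, 12.09 and 12.31 in controls and at 12.39, 12.38 and 12.60 in HOXB4 cells. Every HOXB4 value lay above every control, and the difference was 0.27 (SE 0.11), or 121% of the control level. The adjusted p was 0.605 with limma (unadjusted p = 0.038), and the difference ran from 0.20 to 0.34 when 1 array was left out and was 0.38 with cyclic loess. Its parent Rpl6 lay on the other side of 0 at -0.18. The gene Rps4l, a transcribed pseudogene that the rule reaches only when symbols are updated first, was at 12.18, 12.58 and 12.36 in controls and at 12.76, 12.36 and 12.58 in HOXB4 cells, a difference of 0.19 (SE 0.15) with overlap.

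Paralogs with their own genes were mostly dim. Rpl3l, the striated muscle form of Rpl3, stood at 4.12, 4.11 and 4.03 in controls and at 3.87, 4.00 and 4.04 in HOXB4 cells. Rpl10l, a testis form of Rpl10, stood at 5.13, 4.89 and 5.04 in controls and at 5.06, 4.97 and 5.19 in HOXB4 cells. Rpl39l, a testis form of Rpl39, stood at 4.29, 3.99 and 3.99 in controls and at 3.97, 4.52 and 3.92 in HOXB4 cells. All 3 overlapped between groups and lay below the brightest background feature of each array (5.80 to 6.17), so their differences of -0.12, 0.053 and 0.044 are not read as changes of expression, and the sign of the last 2 turned when some arrays were left out. Rps27l, a paralog of Rps27 induced by p53, was well above background at 13.30, 13.23 and 13.13 in controls and 13.03, 13.19 and 13.04 in HOXB4 cells. Its difference of -0.13 (SE 0.093) lay near the median of the ordinary members. Rpl32l, the other member named after a parent gene, differed by -0.02 (SE 0.10).

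The feature used for a gene was not always at the gene. By the chromosome in the feature name, 6 of the 38 members (Rpl7a, Rpl12, Rpl27, Rpl31, Rpl35 and Rpl41) were read on another chromosome than their RefSeq gene, where 99.7% of all single-gene features matched. The median difference was -0.15 for these 6 and -0.13 for the other 32. Where a second feature lay on the gene's own chromosome, it differed by -0.18 for Rpl27, -0.14 for Rpl35, -0.22 for Rpl41 and -0.20 for Rpl7a, beside -0.22, -0.12, -0.15 and -0.15 for the brighter one. The dimmer features of Rps26 differed by -0.077 and -0.10, both with overlap. The last of these stood at 3.54 to 3.97, below the brightest background feature of each array, so its difference is not read as a change. With features on the own chromosome for all, 36 genes remained, of which 33 lay below 0 with a median of -0.14.

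Besides Rps4l, whose feature lists it under an old and a new symbol, a further 37 ribosomal protein genes are named only by features that list other genes as well. Of these, 36 lay below 0, the median was -0.13 and 17 (45.9%) lay wholly below the controls, where 10.3% of all genes did so in that table. Rps15a had the smallest unadjusted p among them, at 9.97, 9.93 and 10.02 in controls and at 9.56, 9.74 and 9.39 in HOXB4 cells (-0.41, SE 0.11; limma adjusted p = 0.603). Rpl35a and Rps16 followed at -0.34 (SE 0.11) and -0.26 (SE 0.081), and Rpl28 alone lay above 0, at 0.013. By subunit the medians were -0.13 for 26 large and -0.13 for 11 small subunit genes. Of the 220 features named for a single ribosomal pseudogene, 213 lay below 0 with a median of -0.17, and 89 (40.5%) lay wholly below the controls, against 8.53% of all 65956 features. Wholly above the controls were 2 of them, against 5.85% of all features. Probes for processed pseudogenes can read the mRNA of the parent gene, so these features are not independent of the members.

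**Figure D3:**
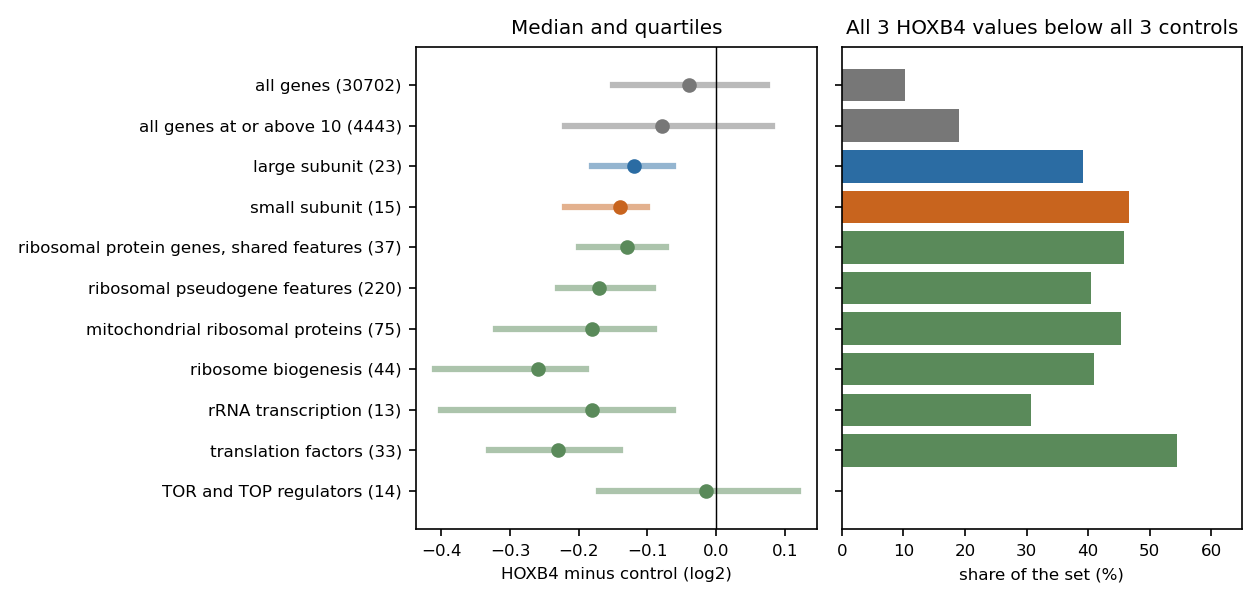
Left, the median (point) and quartiles (bar) of the difference between HOXB4 and control (log2) for sets of genes or features, with the number of each in brackets. Right, the percent of each set whose 3 HOXB4 values all lie below the 3 control values, from 0 for the TOR and TOP regulators over 10.2 for all genes to 54.5 for translation factors.

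Most other genes of ribosome production and translation also lay lower in HOXB4 cells, and limma called none of them over all genes (0 called). Whether their differences are larger than those of the ribosomal proteins was not tested. All 44 measured ribosome biogenesis genes lay below 0, with a median of -0.26 (-0.18 with cyclic loess, with 43 below 0), and 18 lay wholly below the controls (9 with cyclic loess). Over all genes, 60.0% lay below 0 and 10.2% lay wholly below the controls (48.3% and 6.22% with cyclic loess), shares that also stand beside the lists that follow. Bysl, needed for small subunit maturation, was at 10.93, 10.71 and 10.50 in controls and at 10.12, 10.25 and 10.09 in HOXB4 cells (-0.56, SE 0.13). Nip7, a factor of large subunit processing, was at 10.84, 10.77 and 10.77 in controls and at 10.31, 10.56 and 10.30 in HOXB4 cells (-0.40, SE 0.10). Neither gene's groups overlapped. Without HOXB4 2, 39 of the 44 lay wholly below the controls, where 21.4% of all genes did so, and without control 2, 31, where 17.0% did so.

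Of 13 measured genes of ribosomal RNA transcription, 12 lay below 0 with a median of -0.18 (-0.11 with cyclic loess). That median was -0.33 without HOXB4 2 and -0.31 without control 2, but -0.14 without control 3, HOXB4 1 or HOXB4 3. The RNA polymerase I subunit genes Polr1d and Polr1e differed by -0.34 (SE 0.10) and -0.62 (SE 0.19). All 33 measured translation factors lay below 0, with a median of -0.23 (-0.12 with cyclic loess, with 26 below 0), and 18 (54.5%) lay wholly below the controls, against 10.2% of all genes (6 of 33 with cyclic loess, against 6.22%). Eif3k and Eif3d, subunits of the initiation factor eIF3, differed by -0.35 (SE 0.086) and -0.52 (SE 0.16). Ribosomal proteins of mitochondria, which are encoded in the nucleus, showed 67 of 75 below 0 with a median of -0.18 (-0.11 with cyclic loess) and 34 (45.3%) wholly below the controls, against 10.2% of all genes (19 of 75 with cyclic loess, against 6.22%). Mrpl22 and Mrpl19 differed by -0.32 (SE 0.079) and -0.61 (SE 0.15).

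The 14 measured TOR pathway genes and TOP regulators were split, with 7 below 0 and a median of -0.015 that turned to 0.053 with cyclic loess and 0.0058 with centred arrays, and that was above 0 also without control 2, control 3 or HOXB4 3 (0.006, 0.0088 and 0.033). Tsc2, an inhibitor of TOR, differed by 0.22 (SE 0.11) and Mlst8, a subunit of the TOR complexes, by -0.17 (SE 0.10). Of 9 measured factors that bind ribosomal protein promoters or act on their supply, 6 lay below 0. The median was -0.24 (-0.16 with cyclic loess). Wholly below the controls were 4 (44.4%, against 10.2% of all genes) and wholly above them 1 (11.1%, against 3.24%). Yy1 and Max differed by -0.33 each (SE 0.13 and 0.14), without overlap. Gabpb1 and Mdm2 lay above 0, at 0.28 and 0.20 (SE 0.23 each), and Gabpa lay at -0.17 (SE 0.15), all with overlap. Myc stood at 12.61, 11.94 and 11.97 in controls and at 11.73, 11.90 and 11.71 in HOXB4 cells, while Mycn stood at 6.24, 6.56 and 6.62 in controls and at 6.75, 6.84 and 6.67 in HOXB4 cells. All HOXB4 values of Myc thus lay below and all of Mycn above the controls (-0.39, SE 0.19, and 0.28, SE 0.12), with limma adjusted p of at least 0.605 for every gene of this list. With cyclic loess none of the 9 measured genes of the list lay wholly below the controls, and with centred arrays none lay wholly above. The 4 measured genes of ribosomal proteins or close paralogs outside the rule (Fau, Rps3a1, Rpl7l1 and Rpl22l1) all lay below 0, from -0.41 for Rpl22l1 (SE 0.17) to -0.15 for Fau (SE 0.082).

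Small nucleolar RNAs lie in introns of many of these genes, and 8 such RNAs with a feature of their own lie within the span of Rpl39, Rpl4, Rpl7a or Rpsa. Their differences ran from -0.29 to 0.86, all with overlap between groups. Snora62, inside Rpsa, was at 10.77, 11.05 and 9.91 in controls and at 10.53, 12.12 and 11.67 in HOXB4 cells, apart from its host gene.

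Among markers of other cell types limma called no gene, and list means of only the cardiac and PDGFRA mesoderm genes did not overlap between groups. The mean of 9 cardiac genes was 7.80 to 8.11 in controls and 6.81, 7.58 and 6.69 in HOXB4 1 to 3, with 7 of 9 below 0, so HOXB4 2 was again nearest to the controls. The mean of 7 PDGFRA mesoderm genes was 5.79 to 6.06 in controls and 5.39 to 5.70 in HOXB4 cells, with 5 of 7 below 0 (71.4%, against 60.0% of all genes). Wholly below the controls were 2 of them, Foxf1 (-2.16) and Twist1 (-0.73) (28.6%, against 10.2% of all genes). Meox1, Foxc2 and Prrx1 lay below the brightest background feature of each array (5.80 to 6.17). Twist1 did so in all arrays but control 1, where it stood at 6.23. The mean of 10 endothelial and blood precursor genes was 9.93 to 11.03 in controls and 9.71 to 11.56 in HOXB4 cells. Of these, 9 lay above 0, and Etv2 lay below at -1.53 (SE 0.60) with overlap. The mean of 7 pluripotency genes was 6.37 to 6.99 and 6.51 to 7.56, with 6 of 7 above 0. Both means overlapped between groups. Zfp42 (0.69) and Utf1 (0.73), 2 of the 7 pluripotency genes, lay wholly above the controls (28.6%, against 3.24% of all genes). Utf1 lay below the brightest background feature of the array in all but HOXB4 3, where it stood at 6.48. The means of 6 erythroid genes (6.97 to 8.04 and 6.70 to 8.03), 5 endoderm genes (4.45 to 4.62 and 4.45 to 4.77) and 5 feeder fibroblast genes (5.09 to 5.25 and 5.06 to 5.11) overlapped. The part of these marker values in the lower ribosomal protein values was not tested.

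**Figure D4:**
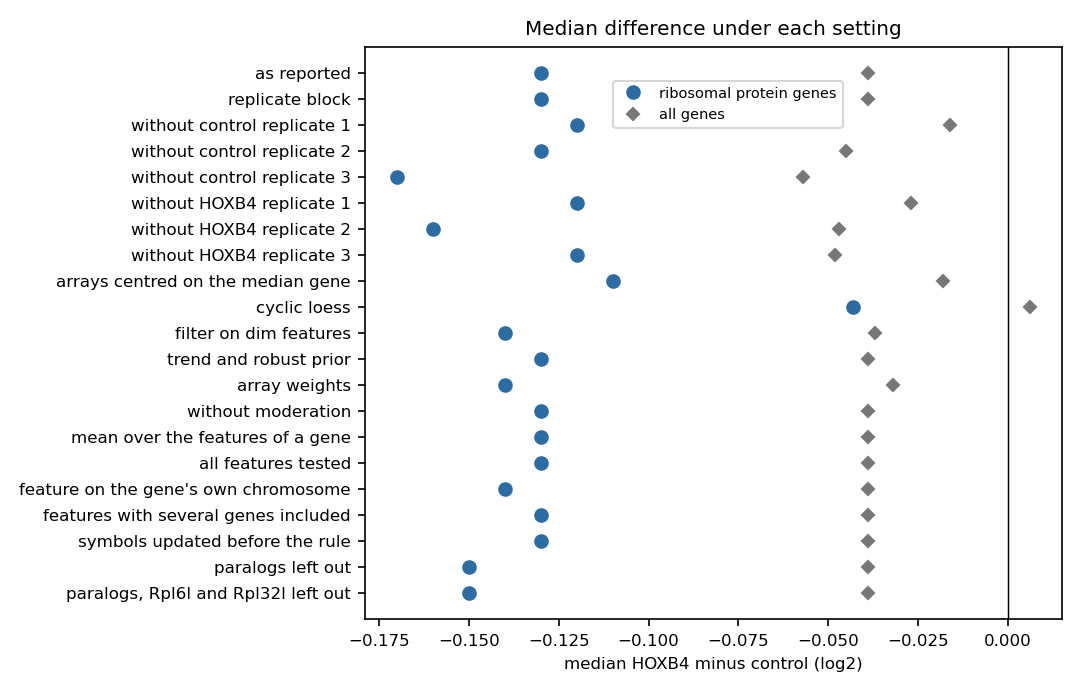
Median difference between HOXB4 and control (log2) of the ribosomal protein genes (circles) and of all genes (diamonds) under each setting. The members' median runs from -0.17 to -0.043 and is below that of all genes in each setting; with cyclic loess it lies closest to 0.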

How the data were processed

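Expression was measured on 1 Affymetrix array per sample. The deposited values are log2 expression summaries, and per the submitters' processing notes the authors used Affymetrix Expression Console and RMA. RMA corrects background, equalises the distributions of the arrays and summarises probes, so a shift shared by most genes would be partly removed. The sources used here give no versions, settings or build for these steps. Per the labels' protocols, 100 ng of RNA was labelled with the WT PLUS kit.

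Of 72688 features, 6732 controls were left out. Symbols were updated through the RefSeq gene table (GRCm38.p6). Of the 65956 features kept, 31258 named 1 gene, 1492 several and 33206 none. The brightest feature stood for each of 30702 genes. HOXB4 minus control was fitted over all genes with limma 3.58.1 in R 4.3.3 (lmFit and eBayes, a two-sided test, called at 0.05 after Benjamini-Hochberg adjustment), without a block. SE is the moderated standard error, SD is over the 3 arrays of a group. Lists were described by counts and medians, with no test. The number of arrays limits the precision. No scan date or other batch is given in the labels. Python 3.11.15 with pandas 2.3.3 gave the summaries, matplotlib 3.10.9 drew the plots, and the fit was tested on simulated data. Log2 changes of 1 and 2 were planted there, and 78 and 99 of 100 were recovered. Changes as small as those of the members were not simulated. Alternatives covered scaling, filters, the prior, array weights, the choice of feature, the member rule, a replicate block and each array left out.

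The members and lists were chosen with earlier results of these data known. The rule for named genes took the 7 members per subunit with the smallest unadjusted p, the 3 with the largest differences above 0, the 3 brightest and 3 dimmest, the stalk genes, Rpsa and paralog pairs where measured, and 2 genes per other list. Other members were named to account for all 38. Some genes of the other lists, Myc and Mycn among them, were named outside this rule.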

Additional observations from a re-analysis of the deposited data

How the results depend on the processing

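No member was called under any of the 20 alternatives, and the smallest adjusted p of a member ran from 0.234 (without HOXB4 2) to 0.925 (without control 1) when 1 array was left out. Of 354 values of named genes under alternatives, 348 kept their sign and 6 turned: Rpl10l at -0.012 without control 2 and -0.0052 without HOXB4 3 (up to 0.11 with another array left out), Rpl39l at -0.0048 without control 2, -0.0059 without control 3 and -0.15 without HOXB4 2 (up to 0.15), and Rpl4 at 0.055 with cyclic loess. With 1 array left out, 32 members stayed below 0 and Rpl6l alone stayed above. Leaving out 1 array gave 17 to 27 members wholly below the controls, where 13.2% to 21.4% of all genes did so (10.2% with all arrays), 1 to 6 with an unadjusted p below 0.05 (1266 to 4267 of all genes; 6 members and 2513 genes with all arrays), and medians of -0.17 to -0.11 for the large and -0.20 to -0.11 for the small subunit. With cyclic loess the medians were -0.043 for all members, -0.038 for the large and -0.051 for the small subunit, 3 members lay wholly below the controls and 2 had an unadjusted p below 0.05. That unadjusted count was 1 with the replicate block and 13 without moderation. Deviations of same-numbered arrays from their group means correlated at -0.402, -0.594 and -0.347. Those of control 2 correlated at 0.427 with HOXB4 1 and 0.381 with HOXB4 3, the arrays alike in endothelial markers. With that split, these values cannot show whether same-numbered arrays shared an experiment. No gene was called with or without the block. Chosen after seeing the data were 3 alternatives. With features of several genes included, Rps4l and 37 further genes made 76, and Rpl31 was read by a brighter shared feature (-0.22, wholly below the controls, in place of -0.071); of the 76, 71 lay below 0, 34 lay wholly below the controls and 13 had an unadjusted p below 0.05. With paralogs, Rpl6l and Rpl32l left out, 0 members lay wholly above the controls, because Rpl6l was the only such member. On the own chromosome, the values were those given in the results. The cause of these changes was not tested. Signal limits the dim paralogs Rpl3l, Rpl10l and Rpl39l, which lie near background.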
